A study of Mus musculus with 40 samples.

Results

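Ckap2 and Gtse1 encode proteins of the mitotic spindle, and they are described here in mouse embryos treated with a DNA-alkylating agent. They were selected on their ratios in this comparison, because both had a high treated-over-control ratio while the genes of G2 phase and mitosis in general did not. They are 2 of the 6970 named genes measured. Each gene had 1 probe that was annotated to that symbol alone, out of 15279 probes on 2 array designs, and both probes lay on array design 2. The choice used the only comparison of the study, so the ratios of both genes are given as a description, with no test.

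The treated embryos were exposed in culture to 40 µM 4-hydroperoxycyclophosphamide, a pre-activated analogue of the anticancer drug cyclophosphamide, for 5 h at 37 °C, and the control embryos were cultured at 37 °C without it. Their total RNA was hybridised together to 2-colour cDNA arrays, with a treated and a control sample in separate channels. Array design 2 held 20 arrays, which are 5 replicates with both dye orientations and 2 readouts of each slide, one plain and one marked B. The labels used here state neither the stage, the strain nor the number of embryos in a sample, nor what the B mark means. They do not say whether replicates came from separate cultures either, so the spread between them may be technical.

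Ckap2 encodes a microtubule-associated protein that accumulates towards mitosis, binds spindle microtubules, is phosphorylated by the mitotic cyclin-dependent kinase and is degraded through the anaphase-promoting complex with its activator Cdh1 at mitotic exit. Gtse1, named for its expression in G2 and S phase, encodes a microtubule-associated protein that was found in mouse as a gene induced by p53, the transcription factor that responds to DNA damage. In human cells GTSE1 rides on growing microtubule ends through EB1, is brought to the spindle by clathrin, inhibits the microtubule depolymerase MCAK and can bind p53 and move it out of the nucleus. Genes of G2 phase and mitosis are commonly controlled through cell cycle homology region (CHR) elements together with CCAAT boxes, which bind NF-Y.

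The RefSeq promoters of both genes on build GRCm38.p6, from 250 bases before to 50 bases after each annotated start, are shown because both genes belong to the class that uses these elements and because Gtse1 is a known p53 target. Ckap2 had 1 such window, at chr8:22185770-22186069 on the minus strand. Gtse1 had a pair of overlapping windows, at chr15:85859457-85859756 and chr15:85859696-85859995 on the plus strand. Capitals mark 3 forms of the CHR element, the CCAAT box and the decamer half-site of p53, searched on both strands. The usual CHR form of G2 and mitosis genes reads TTTGAA in these letters. A variant that is its own reverse complement, and which is found in both windows of Gtse1, reads TTTAAA instead. The rarest of the forms over all promoters of the table, with a share of only 1.56%, reads TTCGAA. On the reverse strand, the box bound by NF-Y appears in these windows as ATTGG.
Ckap2: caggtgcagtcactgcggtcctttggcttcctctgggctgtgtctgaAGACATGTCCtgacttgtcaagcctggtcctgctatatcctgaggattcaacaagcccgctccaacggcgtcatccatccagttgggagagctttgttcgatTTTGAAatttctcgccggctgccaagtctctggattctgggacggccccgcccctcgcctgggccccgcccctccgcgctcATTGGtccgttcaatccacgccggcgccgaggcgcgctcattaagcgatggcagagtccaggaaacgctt
Gtse1, first window: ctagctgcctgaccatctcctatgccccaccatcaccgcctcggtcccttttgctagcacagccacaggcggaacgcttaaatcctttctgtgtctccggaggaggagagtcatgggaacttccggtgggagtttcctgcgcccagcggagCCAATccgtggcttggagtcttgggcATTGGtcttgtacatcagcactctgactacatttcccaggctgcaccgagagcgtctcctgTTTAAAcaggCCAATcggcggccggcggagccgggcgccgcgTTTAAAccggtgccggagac
Gtse1, second window: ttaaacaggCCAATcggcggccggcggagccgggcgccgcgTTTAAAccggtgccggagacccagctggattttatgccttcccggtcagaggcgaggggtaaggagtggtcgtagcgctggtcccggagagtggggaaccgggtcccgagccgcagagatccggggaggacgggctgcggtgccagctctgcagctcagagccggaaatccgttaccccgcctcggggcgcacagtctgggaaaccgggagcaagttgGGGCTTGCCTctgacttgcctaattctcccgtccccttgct

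With bases counted from 1 at the 5′ end of a window, the Ckap2 promoter held TTTGAA at bases 150 to 155, a CCAAT box on the reverse strand at bases 231 to 235 and a p53 half-site at bases 48 to 57. The first Gtse1 window held TTTAAA at bases 239 to 244 and at bases 281 to 286, and 3 CCAAT boxes, but neither TTTGAA nor a p53 half-site by these letters. The second Gtse1 window held TTTAAA at bases 42 to 47, a CCAAT box at bases 10 to 14, both of which lie in the stretch shared with the first window, and a p53 half-site at bases 260 to 269, after the start. No motif searched overlapped another in these windows. Of all 32851 mouse promoters in the table, 17.9% held TTTGAA, 13.2% TTTAAA, 28.8% any of the 3 CHR forms, 37.4% a CCAAT box and 8.36% a p53 half-site. Of 66 promoters of the listed G2 and mitosis genes, 65.2% held a CHR form, 65.2% a CCAAT box and 9.09% a p53 half-site. By form, 60.6% of the 66 held TTTGAA and 16.7% held TTTAAA, the form in the Gtse1 windows. Of 17 promoters of the listed p53 targets, 47.1% held a p53 half-site, 29.4% a CHR form and 76.5% a CCAAT box. The base composition also differed, with 59.7% G and C in the Ckap2 window and 60.0% and 65.7% in the Gtse1 windows, against a median of 52.7% over all promoters. These matches are descriptions of letters, and no binding was measured.

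Ratios are log2 values of treated over control, relative to the median of each array. Their direction is the likely one, read from the channel order of the labels and the values of known p53 targets. It is not settled, because the numerator of the deposited ratio was not given. Arrays of the same orientation on design 2 correlated with each other as low as −0.54 over all probes. The correlation of the replicate values, after both orientations were combined, ran from 0.353 to 0.686. If the numerator of the deposited ratio was the other channel, the means of Ckap2 and Gtse1 become −0.74 and −0.56 and every list below changes sign. Before centring, the replicate medians over all probes of design 2 lay between −0.66 and −0.12, which is the shift that centring takes out. Folds assume logarithms to base 2. Ratios give no expression level, so the make-up of the embryos could not be checked by marker levels, and fewer cells of a type and less RNA per cell cannot be told apart in such bulk RNA.

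Ckap2 was higher in treated than in control embryos in each of the 5 replicates. Its values were 0.87 in replicate 1, 0.70 in replicate 2, 0.58 in replicate 3, 0.74 in replicate 4 and 0.79 in replicate 5. These correspond to at most 1.82-fold, with a mean of 0.74 ± 0.11 (SD, n = 5) or 1.67-fold. Replicate 3 was the lowest and replicate 1 the highest. By its mean, Ckap2 ranked 3 among 7599 probes of the design. In single replicates, 5 probes lay above it in replicate 1, 27 in replicate 2, 136 in replicate 3, 4 in replicate 4 and 38 in replicate 5.

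On the single arrays, Ckap2 was above the array median in 20 of 20, from 0.21 through a median of 0.83 to 1.39. The dye orientations gave unequal sizes. With treated RNA in channel 1 the mean was 0.48 ± 0.26 and with treated RNA in channel 2 it was 0.99 ± 0.29 (SD, n = 5 each). In replicate 1 the arrays with treated RNA in channel 1 read 0.44 and 0.31, and those with treated RNA in channel 2 read 1.32 and 1.39. In replicate 3 the corresponding values were 0.22 and 0.21, and 0.94 and 0.97. In replicate 4 they were 0.29 and 0.31, and 1.14 and 1.23. The orientations did not overlap in these 3 replicates, while in replicate 2 they did, at 0.86 and 0.69 with treated RNA in channel 1 and 0.39 and 0.86 with treated RNA in channel 2. Replicate 5 read 0.82 and 0.68 with treated RNA in channel 1, and 0.83 and 0.85 with treated RNA in channel 2, which lie side by side. The readouts of one slide differed by a median of 0.08 and by at most 0.47, in replicate 2.

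Gtse1 was also higher in treated than in control embryos in each replicate, by sizes that varied more. Its values were 0.68 in replicate 1, 0.70 in replicate 2, 0.68 in replicate 3, 0.50 in replicate 4 and 0.23 in replicate 5. These correspond to 1.17-fold to 1.62-fold, with a mean of 0.56 ± 0.20 (SD, n = 5) or 1.47-fold. Replicates 1 to 3 were nearly equal and replicate 5 was the lowest, and without it the mean was 0.64. Gtse1 ranked 55 among the 7599 probes by its mean. The number of probes above it was 21 in replicate 1, 26 in replicate 2, 99 in replicate 3 and 30 in replicate 4, but 802 in replicate 5.

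The single arrays of Gtse1 ran from 0.06 through a median of 0.58 to 1.22, again with 20 of 20 above the array median. Here the larger ratios came with treated RNA in channel 1, with a mean of 0.70 ± 0.28, against 0.41 ± 0.25 with treated RNA in channel 2 (SD, n = 5 each), which is the opposite order from Ckap2. Replicate 1 had the widest gap, with 1.02 and 1.22 on the arrays with treated RNA in channel 1 and 0.38 and 0.09 on those with treated RNA in channel 2. In replicate 2 the readings were 1.11 and 0.28 with treated RNA in channel 1, and 0.75 and 0.67 with treated RNA in channel 2. Replicate 3 read 1.04 and 0.39, and 0.73 and 0.55, in the same order of channels. Replicate 4 read 0.68 and 0.63, and 0.06 and 0.61. Replicate 5 read 0.30 and 0.35, and 0.12 and 0.14. The readouts of one slide differed more than for Ckap2, with a median gap of 0.19 and a largest gap of 0.83, between the plain and the B readout of replicate 2 with treated RNA in channel 1.

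**Figure D1:**
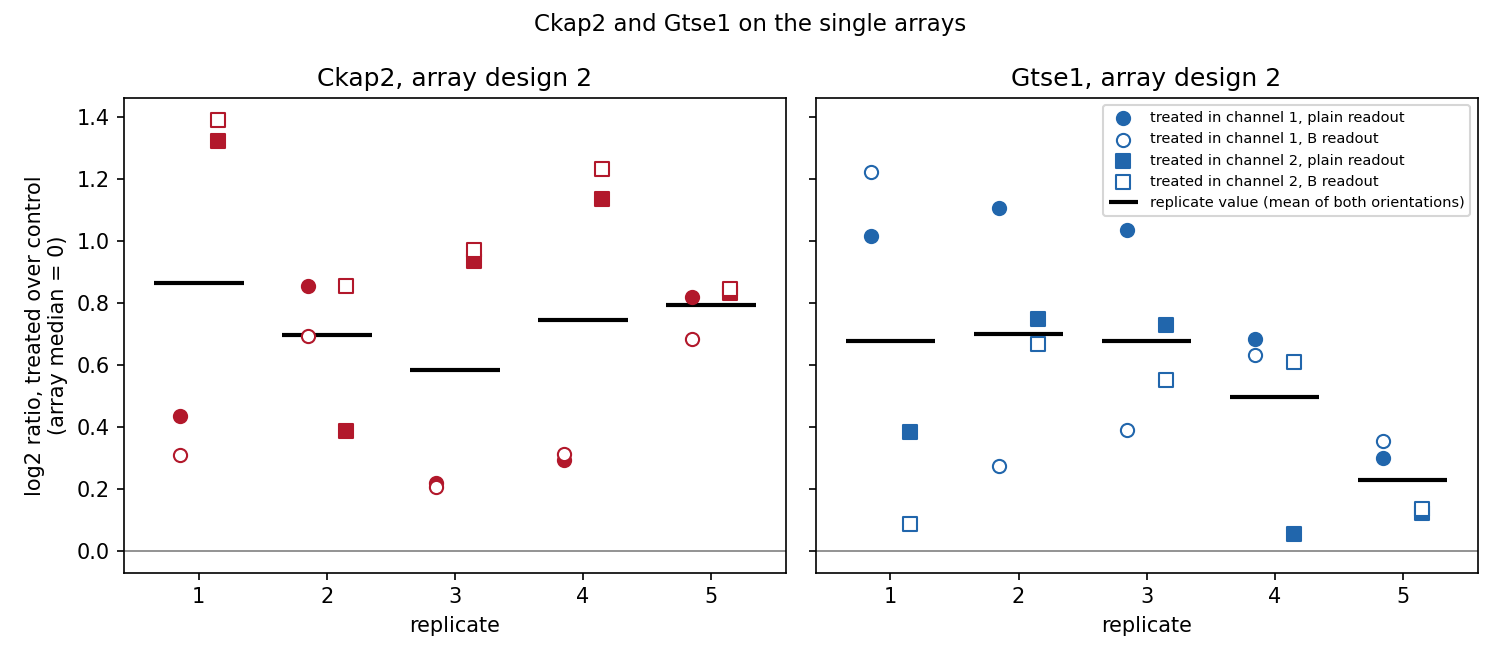
Log2 ratio of treated over control embryos, relative to the array median, for Ckap2 (left) and Gtse1 (right) on the 20 arrays of design 2, by replicate. Circles have treated RNA in channel 1 and squares in channel 2, filled symbols are plain and open symbols B readouts, and the black bar is the replicate value. All 40 points lie above 0, from 0.21 to 1.39 for Ckap2 and from 0.06 to 1.22 for Gtse1.

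The part of the ratio that does not turn with the orientation, called the dye part, averaged −0.25 ± 0.25 for Ckap2 and 0.15 ± 0.18 for Gtse1 (SD, n = 5 each). It ran from −0.49 to 0.08 over the replicates of Ckap2 and from −0.01 to 0.44 over those of Gtse1, so the dye parts of the genes lay on opposite sides of 0 on average. When the smooth trend of the ratios with the dye parts was taken out of each replicate, Ckap2 averaged 0.66 ± 0.10 and still ranked 3, and Gtse1 averaged 0.55 ± 0.21 and ranked 7 (SD, n = 5 each). That trend held between 35.3% and 61.6% of the variance of the replicates over all probes of the design.

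Centring had the larger effect on the sizes. Without it, Ckap2 read 0.35 in replicate 1, 0.31 in replicate 2, 0.47 in replicate 3, 0.26 in replicate 4 and 0.15 in replicate 5, a mean of 0.31 ± 0.12 (SD, n = 5). Gtse1 read 0.16, 0.31, 0.57, 0.02 and −0.42 in the same replicates, a mean of 0.13 ± 0.37 (SD, n = 5). On that scale Ckap2 was above 0 in 5 of 5 replicates and Gtse1 in 4 of 5. The slides carried numbers of 2 series, called 2000 and 3000 after how they begin. On design 2, series 2000 held replicates 1 to 3, where Ckap2 averaged 0.72 and Gtse1 0.68. Series 3000 held replicates 4 and 5, where Ckap2 and Gtse1 averaged 0.77 and 0.36. On array design 1, replicate 3 lay in series 3000 instead. The 10 probes with the nearest probe numbers ran from −0.14 to 0.30 around Ckap2, with a median of −0.10. Around Gtse1 they ran from 0.03 to 0.31, with a median of 0.08. Every one of them lay below the mean of its gene, which the choice of both genes for high ratios makes likely in any case.

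**Figure D2:**
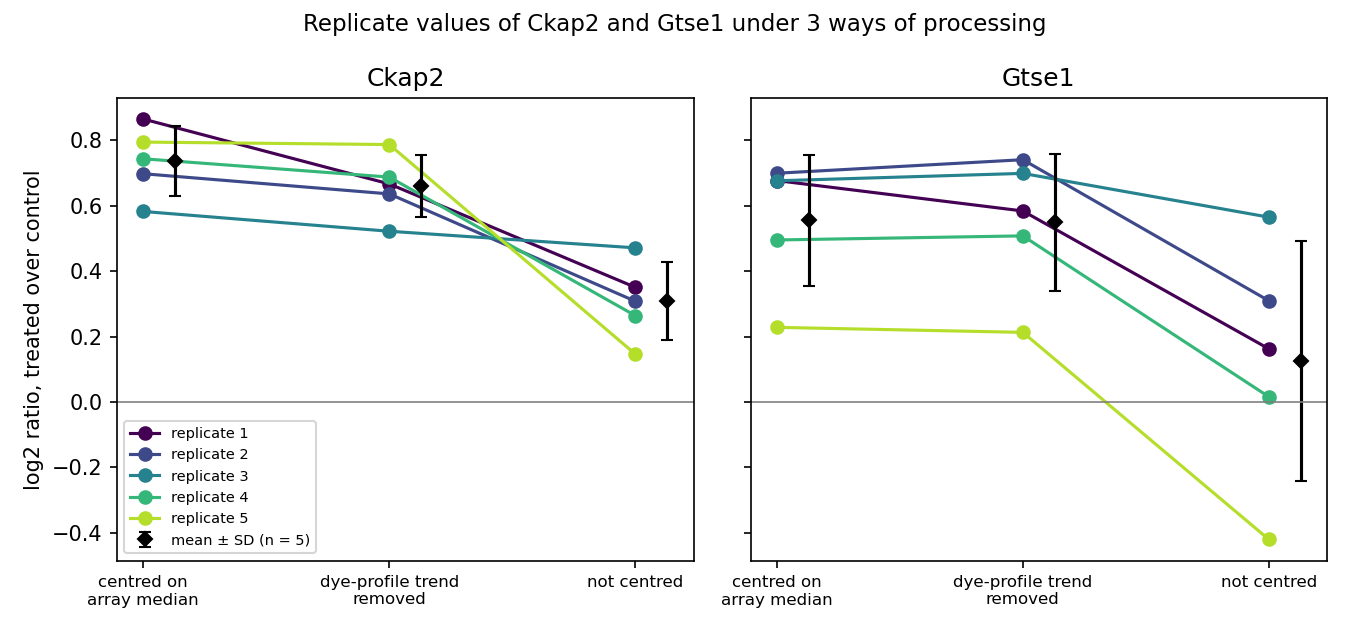
Log2 ratio of treated over control embryos for Ckap2 (left) and Gtse1 (right) in each of 5 replicates, under centring on the array median, after removal of the trend with the dye parts, and without centring. Lines join one replicate and black diamonds are means with SD over the 5 replicates. Ckap2 stays above 0 in every replicate under all 3, while replicate 5 of Gtse1 reads −0.42 without centring.

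The other genes of G2 phase and mitosis on design 2 comprised 41 genes with 53 probes. Of these probes, 8 rose, 6 fell and 39 did not pass an adjusted p of 0.05 (limma, Benjamini-Hochberg over all probes). Over all probes of the design 27.8% passed, of which the risers were 19.8% and the fallers 8.07% of all probes. The choice of Ckap2 and Gtse1 used this same contrast and set them against genes of this kind. Nothing about Ckap2 and Gtse1 is therefore read from that count or from the comparisons of size below. The median of the 53 probes was 0.01, against 0.02 over all probes of the design, and none of them reached the mean of Ckap2 or of Gtse1. Replicate by replicate, Ckap2 was exceeded by 1 of the 53 in replicate 2 and by 1 in replicate 3, and by 0 in the other replicates. Gtse1 was exceeded by 1 in replicate 2 and by 3 in replicate 5, and by 0 in the other replicates. On array design 1, which has no probe for either gene, 64 probes of 49 such genes gave 0 calls by limma, 0 with a robust variance prior and 21 at an unadjusted p under 0.05. Of the 64, 1 lay above the mean of Gtse1, at 0.63 and without passing, and 0 lay above that of Ckap2. Over all probes of that design 0.651% were called (0.638% higher and 0.013% lower), and 33% had an unadjusted p under 0.05. Other settings did give calls for that list on design 1. Without the failing readout, a B readout of replicate 4 that lacks 786 values, there were 8 rises and 4 falls, where 10.2% of all probes rose and 5.77% fell. With the trend with the dye parts removed there were 4 falls, where 0.56% of all probes rose and 0.221% fell, and without centring 30 falls, where 0.247% rose and 59.8% fell. Single arrays with a replicate block gave 3 calls, where 569 of all 7680 probes were called, and plain readouts 2, where 501 were. Treated RNA in channel 1 only gave 13, where 2324 of all probes were called, and in channel 2 only 7, where 1108 were.

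Among spindle and microtubule genes, 3 of 18 probes rose and 3 fell, where 19.8% of all probes of the design rose and 8.07% fell. Prc1, which bundles antiparallel microtubules of the central spindle, rose by 0.35 ± 0.09, Cltc, the clathrin heavy chain, by 0.29 ± 0.25, and Nudc, a dynein-associated factor, by 0.22 ± 0.05 (SD, n = 5 each), with limma adjusted p of 4.73e-05, 0.00457 and 0.00357. The Prc1 probe of array design 1 pointed the other way, at −0.20 ± 0.16, and did not pass (limma adjusted p 0.0829). Racgap1, a subunit of the centralspindlin complex, fell by 0.26 ± 0.07, with a limma adjusted p of 0.000861. Tacc3, which forms the spindle complex with clathrin and ch-TOG, fell by 0.20 ± 0.15 on one probe, with a limma adjusted p of 0.0135, and read 0.12 ± 0.16 on its other probe, which did not pass at 0.119. Kif11, the kinesin that pushes spindle poles apart, fell by 0.16 ± 0.11, with a limma adjusted p of 0.0391. The call of Cltc ended without replicate 1 (limma adjusted p 0.0828), that of Tacc3 without replicate 2 (0.0732) and that of Kif11 without replicate 1, 2 or 3 (0.141, 0.123 and 0.115).

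Of the kinases, cyclins and regulators of G2 and mitosis, 2 of 13 probes rose and 2 fell, where 19.8% of all probes rose and 8.07% fell. Mybl2, the B-Myb transcription factor of the G2 programme, rose by 0.28 ± 0.13 and Ccna2, cyclin A2, by 0.16 ± 0.11, with limma adjusted p of 0.000854 and 0.0339, while the other Ccna2 probe read 0.14 ± 0.06 and did not pass at 0.0526. Bub1b, the checkpoint protein BubR1, fell by 0.19 ± 0.10 and Cks2, a binding partner of cyclin-dependent kinases, by 0.14 ± 0.03, with limma adjusted p of 0.0137 and 0.0467. The call of Ccna2 ended without replicate 1, 2 or 4 (limma adjusted p 0.141, 0.0512 and 0.0721), that of Bub1b without replicate 2 (0.0655) and that of Cks2 without any single replicate (0.0684 to 0.118). Of 22 kinetochore, condensin and anaphase probes, 3 rose and 1 fell, against the same shares of all probes. The risers were the condensin subunits Ncaph at 0.31 ± 0.14, Ncapg at 0.18 ± 0.15 and Smc4 at 0.14 ± 0.08, with limma adjusted p of 0.000364, 0.0271 and 0.0456. Cenpa, the centromeric histone H3 variant, fell by 0.23 ± 0.08 on one probe (limma adjusted p 0.00246) and read −0.02 ± 0.09 on its other, which did not pass (0.809). The call of Ncapg ended without replicate 1 or 4 (0.149 and 0.0833) and that of Smc4 without any single replicate (0.0665 to 0.115).

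Without replicate 1 the 53 probes gave 8 calls and without replicate 2 also 8, against 14 with all replicates. All probes of the design gave 1013 and 1477 calls in these settings, against 2114 with all replicates. With the trend with the dye parts removed, 0 of the 53 probes rose by limma and 11 fell, against 3.15% and 1.88% of all probes on the design. The rises of Cltc, Nudc, Mybl2, Ccna2, Ncaph and Ncapg and the fall of Kif11 then no longer passed, and Prc1 and Smc4 turned to −0.05 and −0.04. Without centring, 0 of the 53 probes rose and 48 fell, where 0.276% of all probes of the design rose and 87.3% fell.

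**Figure D3:**
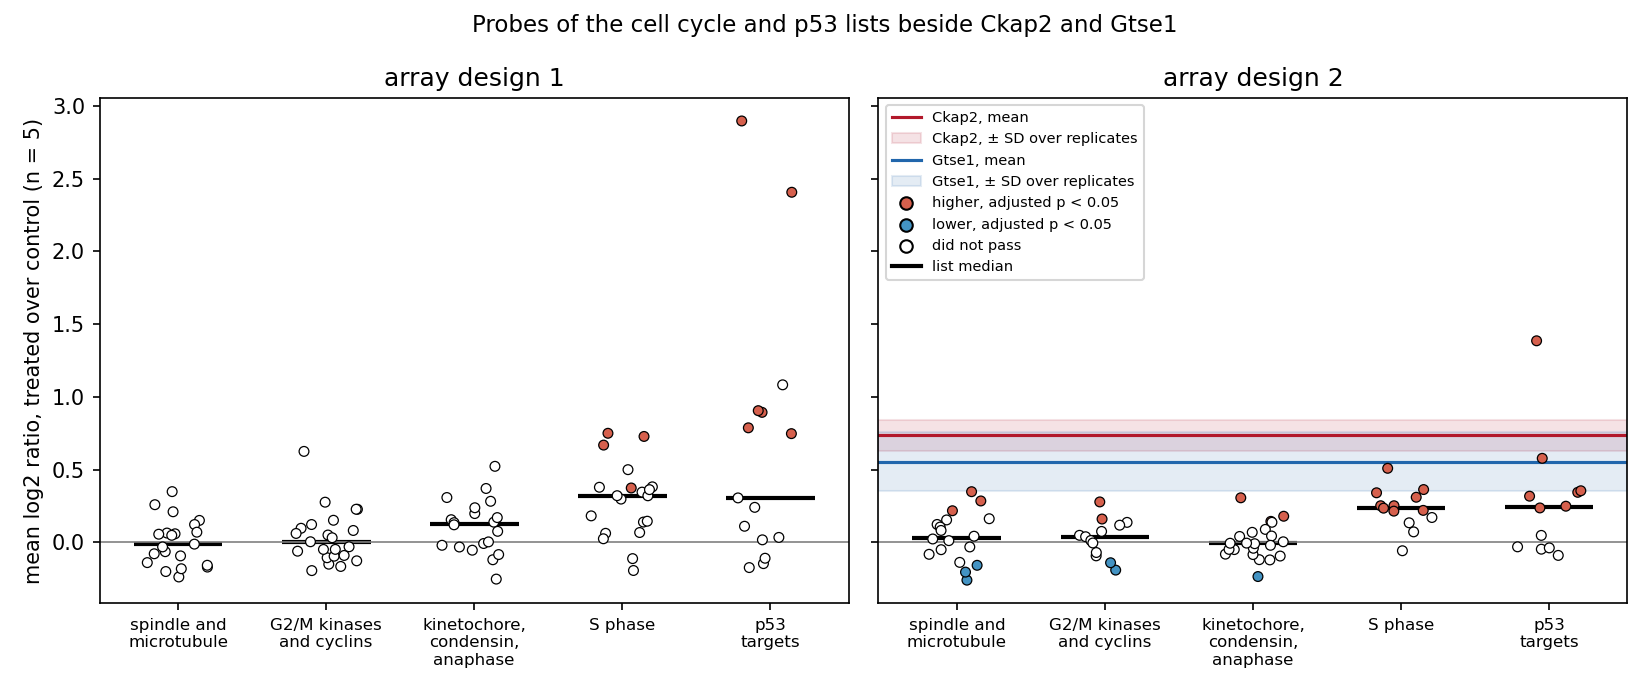
Mean log2 ratio of treated over control embryos (n = 5 replicates) of the probes in 3 lists of G2 and mitosis genes, of S phase genes and of p53 targets, on array design 1 (left) and array design 2 (right). Red points rose and blue points fell at an adjusted p under 0.05, white points did not pass, black bars are list medians, and the coloured lines with bands are the means and SD of Ckap2 and Gtse1. None of the 53 G2 and mitosis probes on design 2 reaches either line, and Ccng1 at 1.39 lies above both. Ckap2 and Gtse1 were chosen on this contrast, so their place above those 53 probes is a description only.

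Of the genes known to act with or on the proteins of Gtse1 and Ckap2, 5 were measured on design 2 by 7 probes. Among the 7 probes 2 rose and 1 fell, where 19.8% of all probes rose and 8.07% fell. The called probes were those of Cltc and Ccna2, and of Tacc3, with the values above. The other partners did not pass. Mapre1, which encodes EB1, read 0.11 ± 0.12 and Fzr1, which encodes Cdh1, read −0.08 ± 0.12 (SD, n = 5 each), with limma adjusted p of 0.156 and 0.266. On design 1, 11 probes of 9 such genes gave 0 calls by limma, 0 with a robust variance prior and 7 at an unadjusted p under 0.05. Over all probes of that design 0.651% were called and 33% had an unadjusted p under 0.05. Without the failing readout 1 of the 11 rose, where 10.2% of all probes did. With the trend with the dye parts removed 1 fell, where 0.221% did, and without centring 3 fell, where 59.8% did. On design 2 the 3 partner calls became 0 on plain readouts, 0 within slide series 3000, 1 without replicate 1 and 1 without replicate 2. The 2114 calls over all probes of the design became 1076, 811, 1013 and 1477 in the same settings. Without centring 6 of the 7 probes fell, where 87.3% of all probes did. Among the partners on design 1, Ckap5, which encodes ch-TOG, read −0.17 ± 0.08 and Kif2c, which encodes MCAK, 0.07 ± 0.13. Cdk1, the mitotic kinase, read 0.15 ± 0.37. Aurkb, the Aurora B kinase, read 0.28 ± 0.18 and Plk1, the Polo-like kinase, −0.13 ± 0.15. Cltc read 0.26 ± 0.23 and 0.21 ± 0.22 on its probes of that design, Mapre1 0.15 ± 0.13 and 0.35 ± 0.43, Tacc3 −0.18 ± 0.19 and Ccna2 0.08 ± 0.17 (SD, n = 5 each).

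The p53 targets, the class in which Gtse1 was first found, gave 7 rises and 0 falls among 12 probes on design 2, where 19.8% of all probes rose, with a median of 0.24 against 0.02 over all probes. With the trend with the dye parts removed 5 rose, where 3.15% of all probes did, and the median was 0.06. Without centring 1 rose and 5 fell, where 0.276% of all probes rose and 87.3% fell. By direction the values of p53 targets were in part what the likely orientation of the ratio was read from, so they are not independent of it. Ccng1, which encodes cyclin G1, read 1.39 ± 0.40 and was the highest probe of the design, and it lay above both Ckap2 and Gtse1. Its probes on array design 1 read 2.41 ± 0.31 and 2.90 ± 0.46 (SD, n = 5 each), so the size of its ratio differed between probes. Abhd4, a lipid hydrolase gene, read 0.58 ± 0.17, which is above Gtse1 and below Ckap2, while its probe on array design 1 read −0.11 ± 0.22 and did not pass (limma adjusted p 0.390). Ppm1d, the phosphatase that dampens p53 signalling, read 0.34 ± 0.09 (SD, n = 5 each) and lay below both. The limma adjusted p-values of the 3 genes on design 2 were 2.35e-09, 5.80e-07 and 5.31e-05. On design 1, 6 of 15 p53 target probes rose and 0 fell, where 0.638% of all probes rose. That count was 3 without replicate 1 and 3 without replicate 3, where 8 and 7 of all 7680 probes rose. There Mdm2, the ubiquitin ligase of p53, read 0.89 ± 0.31 and 0.91 ± 0.41 (SD, n = 5 each), with limma adjusted p of 0.0196 and 0.0382. The call of the first Mdm2 probe ended without replicate 1, 3 or 5 and that of the second without replicate 1, 2, 3 or 5, with limma adjusted p of 0.0587 to 0.133.

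Genes of S phase, the other phase that Gtse1 is named for, gave 9 rises and 0 falls among 13 probes on design 2, where 19.8% of all probes rose, with a median of 0.24 against 0.02 over all probes. Rfc1, the large subunit of the clamp loader, rose by 0.51 ± 0.10 on one probe, Prim1, a primase subunit, by 0.36 ± 0.11, and Mcm6, a subunit of the replicative helicase, by 0.34 ± 0.12 (SD, n = 5 each). Their limma adjusted p-values were 6.46e-07, 3.76e-05 and 8.34e-05, and none of the 13 probes lay above Ckap2 or Gtse1. The other Rfc1 probe read 0.17 ± 0.23 and did not pass (limma adjusted p 0.0616). After removal of the trend with the dye parts, 2 of the 13 rose, where 3.15% of all probes did, and Mcm6 no longer passed (limma adjusted p 0.0541). Without centring, 0 of the 13 rose and 4 fell, where 0.276% of all probes rose and 87.3% fell. Prim1 and Mcm6 then turned to −0.07 and −0.09.

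Embryonic globin genes, which mark primitive red blood cells, also rose. Of 6 erythroid probes from 3 genes on design 2, 5 rose, where 19.8% of all probes rose, and the median was 0.59. Of these, 4 belong to Hbb-y, a beta-like globin, at 0.58 to 0.63, and 1 to Hba-x, an alpha-like globin, at 0.58. The other measured erythroid markers did not pass, with Alas2, the haem synthesis enzyme, at −0.002 (limma adjusted p 0.985) and the transcription factor Gata1, on design 1, at −0.058 (0.455). With the trend with the dye parts removed 3 of the 6 rose, where 3.15% of all probes did, and the median was 0.32. Without centring 0 of the 6 rose and 1 fell, where 0.276% of all probes rose and 87.3% fell. The 5 globin probes lay above the mean of Gtse1 and none above that of Ckap2. The part of erythroid RNA in the ratios of Ckap2 and Gtse1 was not tested. No listed marker of visceral endoderm, nervous tissue, heart, endothelium or placenta was measured on that design. On design 1, where markers of these tissues other than heart were measured by 8 probes, 0 passed by limma, 0 with a robust variance prior and 4 at an unadjusted p under 0.05. Over all probes of design 1, 0.651% were called and 33% had an unadjusted p under 0.05. Without the failing readout 1 of the 8 rose and 1 fell, where 10.2% of all probes rose and 5.77% fell. Without centring 6 fell, where 59.8% of all probes did. The marker with the smallest p of each tissue there was Apob of visceral endoderm at −0.17 ± 0.14, Tubb3 of neurons at 0.36 ± 0.35, Cdh5 of endothelium at 0.22 ± 0.19 and Prl8a2 of the decidua at −0.26 ± 0.12 (SD, n = 5 each).

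Likeness between probes was measured as the root mean square difference of the 5 replicate values on design 2, over 4854 probes with 1 gene symbol. Ckap2 and Gtse1 differed by 0.292 on this measure, so Gtse1 was number 35 in order of likeness to Ckap2, and Ckap2 number 199 in order of likeness to Gtse1. The nearest to Ckap2 were Cd151, a tetraspanin gene, at 0.169, Clic1, a chloride channel gene, at 0.185, Bloc1s2, a subunit of a lysosome biogenesis complex, at 0.190, Cdc34, a ubiquitin-conjugating enzyme gene, at 0.192, and H19, an imprinted non-coding RNA, at 0.213. The nearest to Gtse1 were Cdc34 at 0.133, Gpx3, a secreted glutathione peroxidase gene, at 0.149, Rps19, a ribosomal protein gene, at 0.157, Clic1 at 0.172 and Sparc, a matrix protein gene, at 0.179. Cdc34 and Clic1 stood in both sets. No gene of the G2 and mitosis lists stood in either, which follows from how Ckap2 and Gtse1 were chosen. The highest mean of those lists on design 2 was 0.35, below the 0.44 of Sparc, the lowest mean in the sets. The measure is over 5 replicates that share arrays with the genes themselves, and it reads the size of the ratios as well as their pattern.

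The means of the genes nearest to Ckap2 ran from 0.56 ± 0.17 for Bloc1s2 to 0.63 ± 0.15 for H19, all below Ckap2. Those nearest to Gtse1 ran from 0.44 ± 0.08 for Sparc to 0.58 ± 0.10 for Cdc34 (SD, n = 5 each). In replicate 5, where Gtse1 read 0.23, these 5 genes read 0.37 for Sparc, 0.39 for Rps19, 0.46 for Cdc34, 0.46 for Gpx3 and 0.50 for Clic1, so Gtse1 lay below all of them there.

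**Figure D4:**
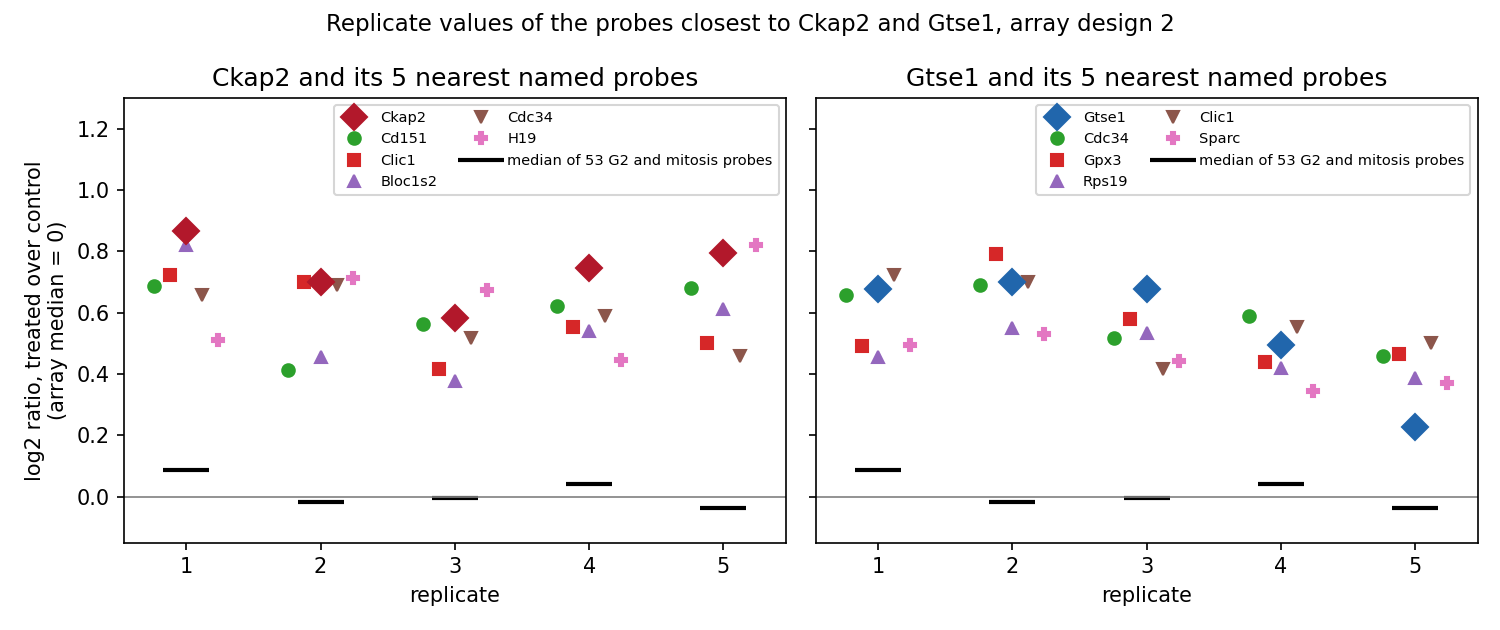
Replicate values of the log2 ratio of treated over control embryos for Ckap2 (left) and Gtse1 (right) as large diamonds, with their 5 nearest named probes and, as black bars, the median of the 53 G2 and mitosis probes of design 2. The median bars lie between −0.04 and 0.09 in every replicate, and Gtse1 in replicate 5 lies below its 5 nearest probes.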

How the data were processed

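All values come from 40 arrays in 2 tables, and array design 2, which holds both genes, has 20. The deposited values were read as log2 ratios of channel 1 over channel 2, channels per the labels. Array medians on design 2 ran from −1.73 to 1.69. The base and the numerator of the ratio, as well as image software, background correction and normalization, were not given in the sources used here. One B readout of replicate 4 on array design 1 lacked 786 values. Both genes had values on every array, and no filter on low values was used.

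After centring on the array median, the sign of control-over-treated arrays was turned, the readouts of a slide were averaged and then both orientations, which left 1 value per replicate. Within each design, probes measured in 3 or more replicates were compared with 0 using limma 3.58.1 in R 4.3.3 (lmFit, eBayes, two-sided, Benjamini-Hochberg, threshold 0.05). The dye trend was a smooth of each replicate on 3 components of the dye part, fitted with mgcv 1.9.3. The fit was tested on simulated data with independent noise for each probe and no dye trend. That test therefore cannot show how the dye trend affects the calls. The members, the lists and the tests were chosen with earlier results of these data known. Probes were named through the platform annotation. On array design 2, 4935 of 7680 spots had 1 gene symbol, 275 several and 2470 none, and repeated spots of one accession were averaged to 7599 probes.

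Named are both genes, the 5 probes nearest to each, Ccng1 and Mdm2, up to 3 members per list and direction with the smallest p among those that passed (or 1 where none did), and every measured partner. Settings varied were centring, scaling, readout, orientation, a replicate block, missing values, a robust prior, slide series, the failing readout, the dye and position trends, and each replicate left out.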

Additional observations from a re-analysis of the deposited data

Results flagged for a closer look

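Abhd4, a p53 target on array design 2, had 1 replicate far from the others. Replicate 2 read 0.27, whereas the other 4 replicates lay between 0.62 and 0.69, so that the gap took up 0.844 of the whole range. The named probes and both genes gave 64 profiles of 5 replicates, of which this was the only 1 that stood apart by Dixon's criterion, where chance alone gives about 1 in 20 (5%). Neither Ckap2 nor Gtse1 had such a replicate. The source of the low value was not tested.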

How the results depend on the processing

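Ckap2 and Gtse1 kept means above 0 under every setting run. Ckap2 moved to 0.31 without centring, 0.48 with treated RNA in channel 1 only and 0.99 with treated RNA in channel 2 only, and leaving out 1 replicate gave 0.71 to 0.78. Gtse1 moved to 0.13 without centring, and leaving out 1 replicate gave 0.52 to 0.64. The number of probes called on array design 2, 2114, became 6655 without centring (21 higher, 6634 lower), 1330 with arrays scaled, 1076 on plain readouts, 1190 and 117 with treated RNA in channel 1 or channel 2 only, 811 within slide series 3000, 382 with the dye trend removed and 1013 to 2637 without 1 replicate, lowest without replicate 1. The count within slide series 3000 rests on replicates 4 and 5 alone, below the 3 required otherwise. With single arrays and a replicate block the number called on design 2 was 2471. On array design 1, 50 calls became 4615 without centring (19 higher, 4596 lower), 345 with arrays scaled, 501 on plain and 3 on B readouts, 2324 and 1108 by orientation, 569 with a replicate block, 12 with a slide series term, 3 within series 3000, 1224 without the failing readout and 7 to 82 without 1 replicate, with 8, 12, 7, 82 and 9 calls without replicates 1 to 5. With probes that had a value in every array there, 0 of 6894 were called by limma and 2018 had an unadjusted p under 0.05. Without centring, these reversed on design 2: Prc1 to −0.081, Ncaph to −0.12, Mybl2 to −0.15, Ccna2 to −0.27 and −0.29, Ncapg to −0.25, Smc4 to −0.28, Ppm1d to −0.085, Cltc to −0.14, the second Tacc3 probe to −0.31, Mapre1 to −0.32, Prim1 to −0.066, Mcm6 to −0.088 and Nudc to −0.21. With treated RNA in channel 1 only, Plk1 turned to 0.46, Prc1 to −0.30, Smc4 to −0.053 and Rfc1 to −0.019. With treated RNA in channel 2 only, Kif2c turned to −0.63, Mybl2 to −0.17, Cks2 to 0.042, the second Tacc3 probe to −0.65 and Kif11 to 0.039. With the dye trend removed, Prc1 turned to −0.049 and Smc4 to −0.040. The causes were not tested. Signal over background is unknown, since the values are ratios.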

Other observations

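H19, the imprinted non-coding RNA named above for 1 probe near Ckap2, was measured by 7 probes on array design 2, and 7 of 7 rose, between 0.52 and 0.63 on the log2 scale, where 19.8% of all probes rose. Its 1 probe on array design 1 read 0.64 ± 0.30 (SD, n = 5) and also rose (limma). With the dye trend removed the 7 probes read 0.27 to 0.38. Without centring they read 0.088 to 0.20 and 0 of 7 passed, where 0.276% of all probes rose and 87.3% fell. The probe of array design 1 then read 0.33 and did not pass (limma). These probes were singled out after their values were seen.

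On array design 1, which has no probe for Ckap2 or Gtse1, 4 of 20 probes of S phase genes rose and 0 fell, where 0.638% of all probes rose, with a list median of 0.32. Rrm2, the small subunit of ribonucleotide reductase, rose by 0.73 ± 0.22 and 0.75 ± 0.25 on 2 of its 3 probes, and Pcna, the sliding clamp of DNA polymerases, by 0.67 ± 0.29 (SD, n = 5 each), with limma adjusted p of 0.0196 for each of these Rrm2 probes and 0.0387 for Pcna. The third Rrm2 probe read 0.50 ± 0.47, with a limma adjusted p of 0.0689, and was not called. The count fell to 0 without replicate 1 and to 0 without replicate 2, and it was 2 without replicate 3, 4 without replicate 4 and 2 without replicate 5. It was 11 rises and 1 fall without the failing readout, where 10.2% of all probes rose and 5.77% fell. Without centring it was 3 rises and 4 falls, where 0.247% of all probes rose and 59.8% fell. The count was 1 with a slide series term, 0 on B readouts, 0 with probes that had a value in every array and 0 within slide series 3000.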
